A study of Mus musculus with 20 samples.

Results

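The glutathione S-transferases measured here are the cytosolic enzymes encoded by Gsta1, Gsta2, Gsta3 and Gsta4 of the alpha class, Gstm1 of the mu class and Gstp1 of the pi class. Every array probe whose platform annotation carries 1 of these 6 gene symbols was taken, which gave 6 of the 16110 genes and 10 of the 25697 probes on the array: 1 each for Gsta1, Gsta2 and Gsta4, 2 each for Gsta3 and Gstm1, and 3 for Gstp1. Total RNA from whole lung was hybridised to Illumina bead arrays, 1 array per sample. The 20 arrays fall into 4 groups: cigarette smoke with losartan (CS_Los, 3 arrays), cigarette smoke (CS, 7 arrays), room air with losartan (RA_Los, 3 arrays) and room air (RA, 7 arrays). All mice were males of the inbred AKR/J strain, aged 6 to 8 weeks at the start, and the labels name no engineered allele. Smoke came from 2R4F reference cigarettes, burned for 2 h daily, 5 days a week, with carbon monoxide averaging 350 ppm. The labels give the length of exposure as 6 to 7 weeks in the treatment protocol and as 2 months in the design text. Losartan, which blocks the angiotensin II type 1 receptor, was dissolved in the drinking water at 0.6 g/L. The growth protocol names 3 of the 4 groups and leaves out RA_Los. The labels also give a batch and a replicate number, which the text uses, although the titles count the CS_Los samples from 7 to 9 and those of batch 2 from 1 to 4. Each group has 3 arrays in batch 1, and the remaining 4 CS and 4 RA arrays, numbered 4 to 7 in the text, form batch 2.

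Glutathione S-transferases join reduced glutathione to electrophiles such as epoxides, quinones and the aldehydes of lipid peroxidation, which makes these compounds soluble and ready for export. In rodent lung they are found in airway club cells among others, and several are known targets of the transcription factor NRF2, which binds antioxidant response elements when cells meet electrophiles or oxidants. Cigarette smoke carries both, along with polycyclic aromatic hydrocarbons that act through the aryl hydrocarbon receptor.

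The stretches upstream of the RefSeq transcription starts of 5 of the genes are shown because control through upstream elements is known for this family. They come from the RefSeq promoter table of build GRCm38.p6, which held 5 of the 6 genes, not Gsta4, and each is 150 bases, read 5′ to 3′ on the strand of the gene. Capitals mark 3 motifs searched on both strands: TGACNNNGC, the antioxidant response element core, TGAGTCA, the AP-1 site, and GCGTG, the aryl hydrocarbon receptor core. No 2 matches overlap in these stretches.
Gsta3 (chr1:21240415-21240564, plus strand): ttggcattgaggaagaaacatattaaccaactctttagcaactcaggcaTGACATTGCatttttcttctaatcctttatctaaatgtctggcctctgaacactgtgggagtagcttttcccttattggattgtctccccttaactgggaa
Gstp1 (chr19:4037913-4038062, minus strand): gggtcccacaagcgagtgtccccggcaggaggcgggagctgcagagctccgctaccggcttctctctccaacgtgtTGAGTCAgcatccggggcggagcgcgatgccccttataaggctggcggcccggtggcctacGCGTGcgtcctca
Gstm1 (chr3:108017974-108018123, minus strand): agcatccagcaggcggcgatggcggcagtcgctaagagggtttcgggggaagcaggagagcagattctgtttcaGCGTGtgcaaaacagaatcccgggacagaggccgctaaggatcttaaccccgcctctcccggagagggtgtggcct
Gsta1 (chr9:78230519-78230668, plus strand): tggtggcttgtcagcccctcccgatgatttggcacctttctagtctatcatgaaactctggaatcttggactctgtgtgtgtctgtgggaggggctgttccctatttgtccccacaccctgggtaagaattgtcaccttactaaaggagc
Gsta2 (chr9:78347193-78347342, minus strand): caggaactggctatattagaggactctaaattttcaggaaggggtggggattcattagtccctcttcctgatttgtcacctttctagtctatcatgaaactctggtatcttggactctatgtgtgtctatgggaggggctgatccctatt
The Gsta3 stretch holds TGACNNNGC as TGACATTGC, with its first base 121 bases upstream of the table's start at 21240585, which lies inside the outermost annotated start. Of 32851 promoters in the table, 10.2% hold that motif in their 250 upstream bases. The Gstp1 stretch holds TGAGTCA 74 bases upstream, a motif in 4.46% of promoters, and GCGTG 13 bases upstream, a motif in 28.2%. The Gstm1 stretch holds GCGTG 76 bases upstream of its start. The Gsta1 and Gsta2 stretches shown hold none of the 3. The Gsta2 stretch covers bases 197 to 48 upstream of the table's start, and nearer to that start, 7 bases upstream and outside the stretch, Gsta2 does hold GCGTG. The 250 upstream bases of Gsta1 and Gsta2 align with 70.8% identity (184 of 260 aligned columns). A match describes letters and not binding.

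Signals were detectable for most of these genes on every array. A probe counts as detected on an array where its deposited detection p-value, which compares it with the negative-control beads, is under 0.05. The probes for Gsta2, Gsta3, Gsta4 and Gstp1 and the Gstm1 probe 3850129 were detected on all 20 arrays. Gsta1, an alpha enzyme that also reduces organic hydroperoxides, was near background: it was detected on 2 of 3 CS_Los arrays, 2 of 3 CS, 2 of 3 RA_Los and 0 of 3 RA arrays of batch 1, and on 0 of 4 CS and 1 of 4 RA arrays of batch 2. The second Gstm1 probe, 4540458, was detected on 0 of the 12 arrays of batch 1, and on 4 of 4 CS and 3 of 4 RA arrays of batch 2. All 10 probes passed the filter of detection on at least 3 arrays, which kept 17012 probes (66.2%). The values below are log2 signals after background correction and quantile normalization unless called deposited signals, which are linear brightness as the files give them.

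**Figure D1:**
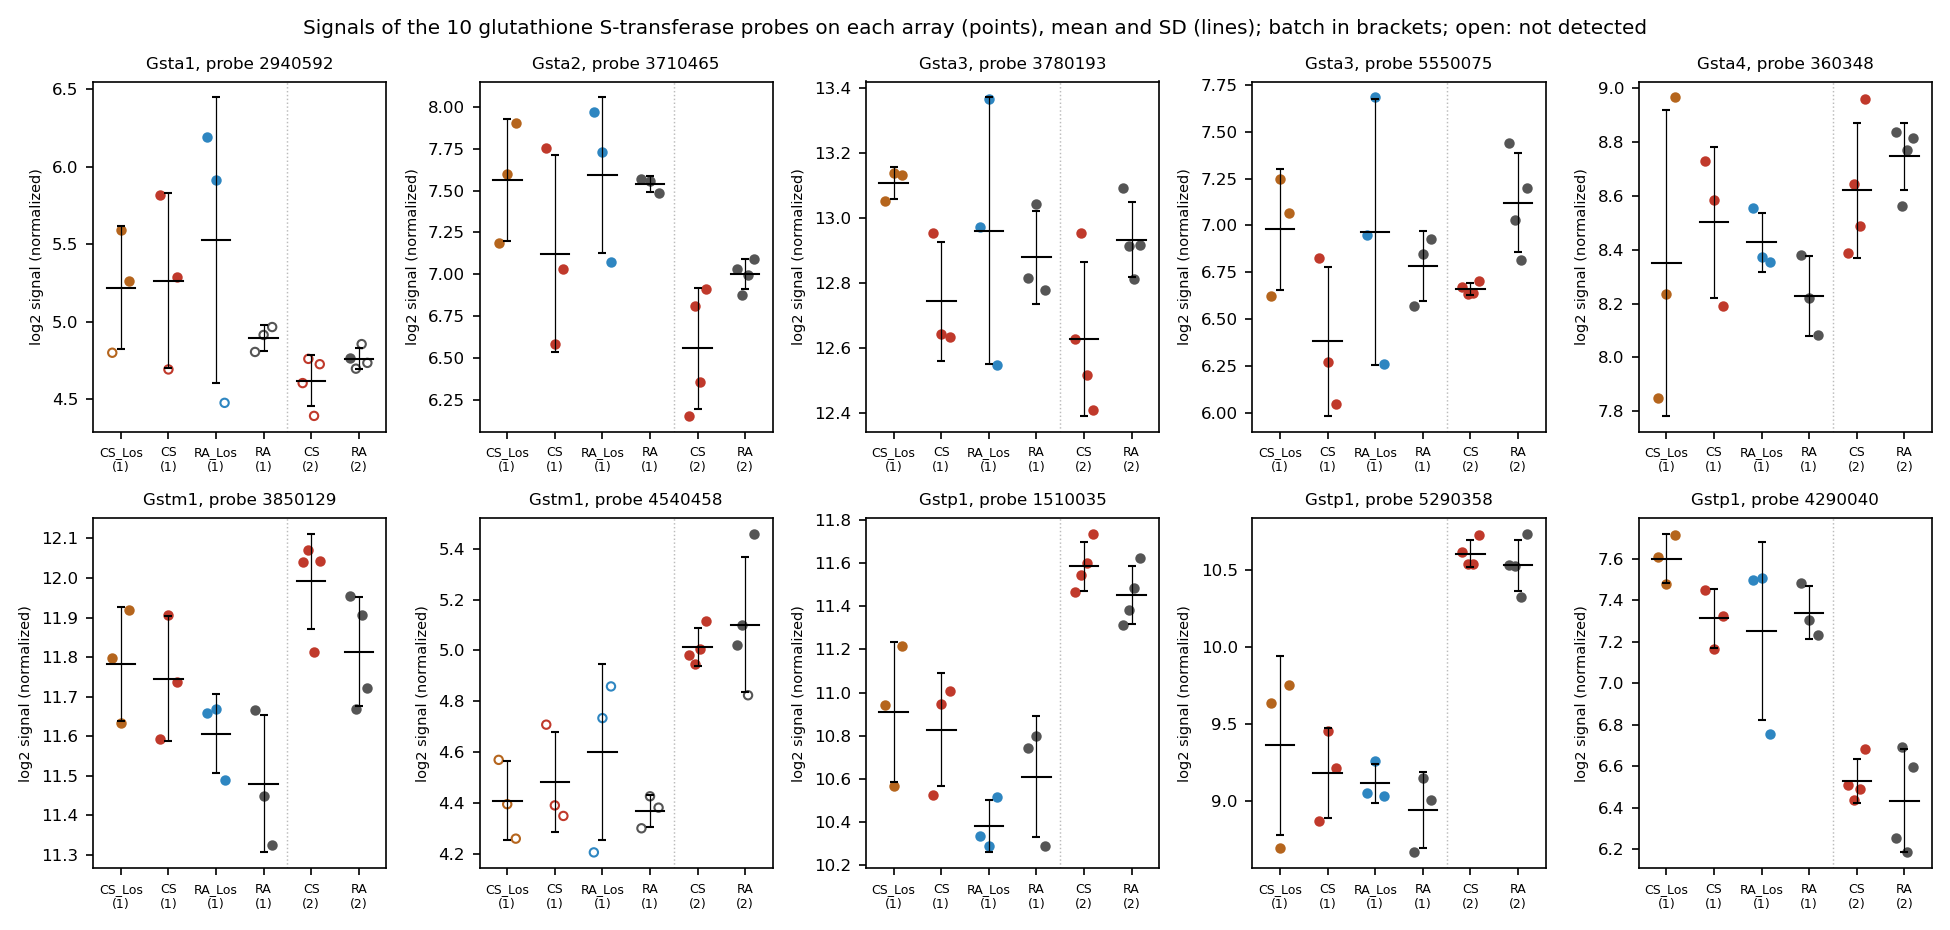
Normalized log2 signal (vertical axis) of each of the 10 probes on each of the 20 arrays, by group, with the batch in brackets under each group; horizontal lines are means, vertical bars SDs, and open points arrays on which the probe was not detected. The 4 CS points of batch 2 for Gsta3 probe 5550075 lie between 6.63 and 6.71, below the 4 RA points.

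Batch 2 was brighter as a whole. An array's median probe signal lay between 57.2 and 72.3 in batch 1, with 13946 to 15155 probes detected, and between 87.4 and 100.4 in batch 2, with 15089 to 15784 detected. Nothing in the labels says that replicates came from separate animals, so a p-value here reflects the spread between samples, which may be technical. In whole lung, fewer cells of a type and less RNA per cell cannot be told apart. Heart and skeletal muscle markers varied widely between arrays of the same group, and Myh6 and Myl7 were detected on all 20 arrays, while Ryr2 was detected on 0. The airway club cell genes Scgb1a1 and Cyp2f2, which mark lung, were detected on all 20 arrays.

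The first comparison, CS against RA, asks which of these genes differ in lungs after weeks of smoke. It covered 14 arrays with batch as a term, in limma's moderated test, with Benjamini-Hochberg adjustment over all 17012 probes. Of the 10 probes, 1 passed at an adjusted p under 0.05, a Gsta3 probe that fell, and 0 rose. Over all probes 11.1% passed, 5.85% lower and 5.23% higher, so 1 of 10 is a share near the background. The median log2 difference of the 10 probes was 0.04 (range -0.43 to 0.22), against -0.001 for all probes. By class, the differences were negative for 3 of 5 alpha probes and 1 of 2 mu probes and positive for 3 of 3 pi probes. These are not separate genes: all 3 pi probes read Gstp1, and both Gsta3 probes are among the negative alpha probes. The negative mu probe, at -0.003, was not detected in batch 1.

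Gsta3 encodes an alpha class enzyme known in mice for conjugating the epoxide of aflatoxin, and it lies on chromosome 1 (GRCm38.p6, 21240565 to 21265575). Its probe 5550075 read 6.82, 6.27 and 6.05 on the CS arrays of batch 1, against 6.57, 6.85 and 6.93 on the RA arrays. In batch 2 it read 6.67, 6.63, 6.64 and 6.71 on the CS arrays, against 7.44, 7.03, 6.82 and 7.20 on the RA arrays. Its deposited signals were low in batch 1, at 80.5 to 101 on CS and 89 to 114.4 on RA arrays. Array medians there lay between 57.2 and 72.3. In batch 2 the deposited signals ran from 174.7 to 205.7 on CS and from 192.5 to 315.7 on RA arrays. The groups overlap in batch 1, where CS 1 sits within the RA range, and do not overlap in batch 2, where all 4 CS arrays are lower. CS and RA do not overlap for 0 of the 10 probes in batch 1, against 18.7% of all probes, and for 1 of the 10 in batch 2, against 12.7% of all. The fitted log2 difference was -0.43 ± 0.12 (SE), a 1.35-fold lower signal in CS, with an adjusted p of 0.0242 in limma's test. Within batches the difference was -0.40 in batch 1 (limma adjusted p 0.827) and -0.46 in batch 2 (limma adjusted p 0.0579). The batch 1 fit took 1 spread from all 4 groups of that batch, losartan arrays included. Its p-values are thus not from CS and RA arrays alone. For this probe the SD in batch 1 was 0.71 in RA_Los, 0.32 in CS_Los, 0.40 in CS and 0.19 in RA. Tested by batch, 0 of the 10 probes passed in limma's test in either one, with 0 and 3 of them at an unadjusted p under 0.05 in batch 1 and batch 2. Over all probes 0.00588% passed in batch 1 and 5.13% in batch 2 (2.29% higher, 2.84% lower). An unadjusted p under 0.05 was found for 1261 of all 17012 probes in batch 1 and for 3347 in batch 2. The call rests on CS 2 and CS 3 in part: without CS 2 the adjusted p is 0.0508, and without CS 3 it is 0.0535. It is also lost with the replicate number as a block (adjusted p 0.0540), with all 20 arrays in 1 fit (0.153) and without the batch term (0.148), while the estimate stays at -0.43 in those fits.

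The second Gsta3 probe, 3780193, pointed the same way with a smaller difference that did not pass. Its deposited signals ran from 3690.4 to 10536.9 on CS arrays (median 8180.2) and from 4547.0 to 13029.0 on RA arrays (median 9726.3). After normalization it averaged 12.74 ± 0.18 on CS arrays and 12.88 ± 0.14 on RA arrays of batch 1 (SD, n = 3 each), and 12.63 ± 0.24 on CS and 12.93 ± 0.12 on RA arrays of batch 2 (SD, n = 4 each). The groups overlap in both batches, since CS 1 and CS 5 reach the level of the RA arrays. The fitted difference was -0.23 ± 0.09 (SE; limma adjusted p 0.131). With centring on the 75th percentile it passed at -0.32 (limma adjusted p 0.0298), and with the series' own log2 values at -0.30 (limma adjusted p 0.0227). Both probes are annotated to the same accession, and their deviations from group and batch means correlate at 0.76 over the 20 arrays.

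Gsta2, an alpha enzyme with peroxidase activity encoded beside Gsta1 on chromosome 9, had an estimate as low as that of Gsta3 but did not pass. It read 7.75, 6.58 and 7.03 on CS arrays and 7.57, 7.56 and 7.48 on RA arrays of batch 1. In batch 2 it read 6.16, 6.81, 6.36 and 6.91 on CS arrays, against 7.03, 6.88, 7.00 and 7.09 on RA arrays. The RA arrays of each batch lie close together (SD 0.05 and 0.09), while the CS arrays spread (SD 0.59 and 0.36) and overlap them through CS 1 in batch 1 and CS 7 in batch 2. The fitted difference was -0.43 ± 0.15 (SE; limma adjusted p 0.0775), with -0.41 in batch 1 and -0.44 in batch 2. Without CS 1 it passed at -0.55 (limma adjusted p 0.0075), and with arrayWeights at -0.50 (limma adjusted p 0.0206).

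Gsta1 and Gsta4 gave no difference that passed. Gsta1 differed by 0.08 ± 0.14 (SE; limma adjusted p 0.786), with 0.37 in batch 1 and -0.14 in batch 2, near background on most arrays. Gsta4, whose enzyme has a known preference for 4-hydroxynonenal from lipid peroxidation, differed by 0.04 ± 0.11 (SE; limma adjusted p 0.855), with 0.27 in batch 1 and -0.13 in batch 2. Its 95% interval of -0.20 to 0.29 bounds the size of a difference in either direction. A test of whether the smoke difference itself differed between batches called 0 of the 10 probes in limma's test (0 at an unadjusted p under 0.05). Over all probes 0.00588% were called, and 802 of 17012 had an unadjusted p under 0.05.

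**Figure D2:**
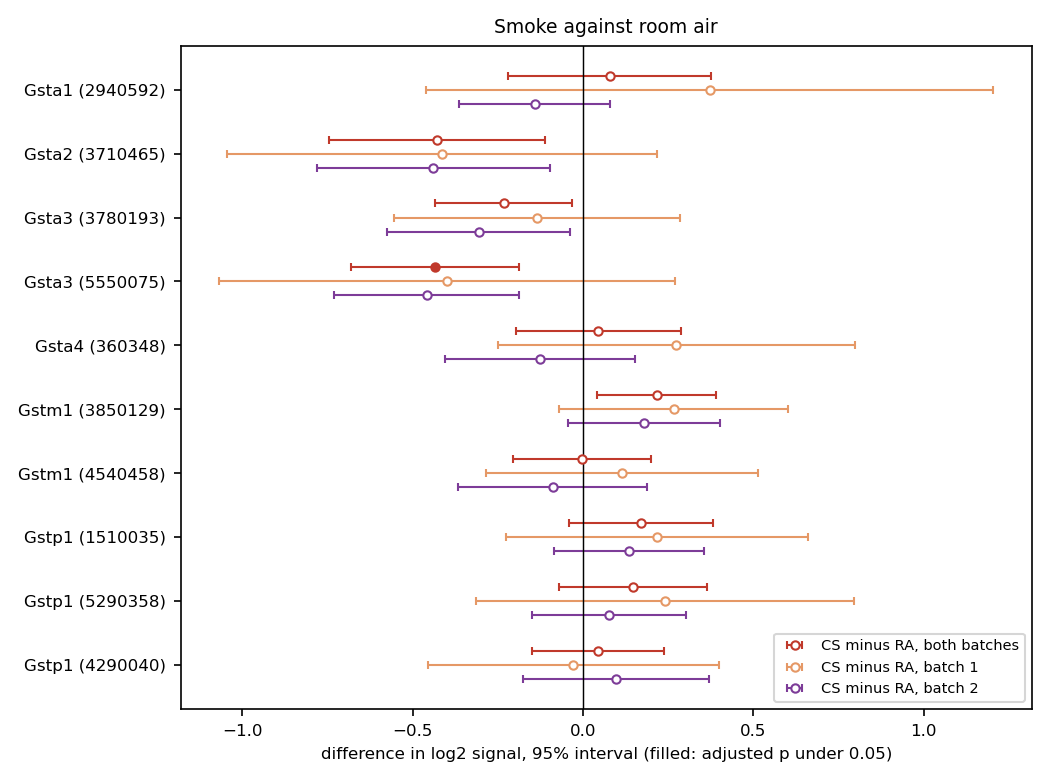
Difference in log2 signal, CS minus RA (horizontal axis, with 95% intervals), for the 10 probes over both batches and within each batch; filled points pass at an adjusted p under 0.05. The Gsta2 and Gsta3 points lie below 0 in both batches, and the only filled point is Gsta3 probe 5550075 over both batches at -0.43.

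Gstm1 encodes a mu class enzyme that acts on epoxides of polycyclic aromatic hydrocarbons. Its probe 3850129 read 11.59, 11.91 and 11.74 on CS arrays and 11.67, 11.45 and 11.32 on RA arrays of batch 1. In batch 2 it read 12.04, 12.07, 11.81 and 12.04 on CS arrays, against 11.95, 11.67, 11.91 and 11.72 on RA arrays. In batch 2, 3 of the 4 CS arrays lie above every RA array, and CS 6 lies among the RA arrays. The difference was 0.22 ± 0.08 (SE; limma adjusted p 0.109), with 0.27 in batch 1 and 0.18 in batch 2. Probe 4540458 of the same gene differed by -0.003 (limma adjusted p 0.990), and the deviations of the 2 Gstm1 probes correlate at -0.48 over 20 arrays. Since probe 4540458 was not detected in batch 1, only probe 3850129 reads Gstm1 there.

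Gstp1 encodes the pi class enzyme, the form usually most prominent in human lung epithelium. Its 3 probes carry 1 accession, and none passed. Probe 1510035 averaged 10.83 ± 0.26 on CS and 10.61 ± 0.28 on RA arrays of batch 1 (SD, n = 3 each), and 11.59 ± 0.11 on CS and 11.45 ± 0.14 on RA arrays of batch 2 (SD, n = 4 each), with overlap in both. The differences were 0.17 ± 0.10 for probe 1510035, 0.15 ± 0.10 for probe 5290358 and 0.04 ± 0.09 for probe 4290040 (SE; limma adjusted p 0.312, 0.410 and 0.824).

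The 3 Gstp1 probes split by batch. In CS arrays, batch 2 minus batch 1 was 1.43 for probe 5290358, 0.76 for probe 1510035 and -0.78 for probe 4290040. In RA arrays the difference was 1.59 for probe 5290358, a 3.02-fold higher signal in batch 2 and above 99.5% of all probes, 0.84 for probe 1510035 and -0.91 for probe 4290040. Within groups the first 2 probes deviate together (correlation 0.60 over 20 arrays), while probe 4290040 is unrelated to both (0.18 with 5290358 and 0.03 with 1510035). Gstp1 has the close copy Gstp2 in the mouse, and Gsta1 and Gsta2 are likewise close, so how far a probe also reads a neighbour was not tested. Levels of Gstp1 are therefore comparable only within a batch and a probe.

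Markers of other cells were read on the same arrays, and their part in the differences of the alpha genes was not tested beyond the covariate fits given here. Beside the counts below, 5.23% of all probes passed higher and 5.85% lower. The 14 muscle markers tested passed in 0 cases, and their mean, set to the RA mean of each batch, ran from -1.42 to 1.88 on CS and -1.31 to 1.28 on RA arrays of batch 2, and from -0.34 to 1.23 on CS and -0.77 to 1.36 on RA arrays of batch 1. Of 14 club and secretory markers, 2 rose (Hp and Scgb3a1) and 1 fell (Cyp2b10, -0.43), while the defining Scgb1a1 differed by 0.01. The club marker mean ran from 0.65 to 0.91 on CS and -0.30 to 0.37 on RA arrays of batch 1, and from -0.32 to 0.99 on CS and -0.39 to 0.82 on RA arrays of batch 2. Of 6 erythroid markers tested, 4 fell in CS, with a mean of -2.23 to -1.19 on CS and -0.98 to 1.11 on RA arrays of batch 1, and -1.32 to -0.13 on CS and -1.39 to 0.81 on RA arrays of batch 2. Of 3 hepatocyte markers tested, 1 fell, Serpina1a by 1.00 (limma adjusted p 0.0006). Serpina1a was detected on 20 arrays, but Ahsg and Apoa2, the rest of the list, on only 5 and 3. The list's median was -0.13 over both batches and -0.02 in batch 2, so its mean leans on Serpina1a. That mean did not overlap between the groups of either batch: -0.78 to -0.34 on CS and -0.15 to 0.19 on RA arrays of batch 1, and -0.34 to -0.15 on CS and -0.13 to 0.20 on RA arrays of batch 2. That mean correlates with the Gsta3 probes at 0.52 and 0.63 within groups, and its part was not tested. Of 6 lymphocyte markers 2 rose, with a median of 0.48, and their mean ran from 0.43 to 0.80 on CS and -0.15 to 0.08 on RA arrays of batch 1, and from 0.35 to 1.02 on CS and -0.64 to 0.53 on RA arrays of batch 2. Of 13 clock genes 3 rose and 4 fell. Their mean ran from -0.003 to 0.61 on CS and -0.04 to 0.06 on RA arrays of batch 1. In batch 2 the clock mean ran from -0.36 to -0.02 on CS and -0.11 to 0.05 on RA arrays. Within groups it correlates at 0.59 with Gsta4, 0.33 with Gsta2 and 0.04 and 0.37 with the Gsta3 probes. Of 13 ciliated markers 0 passed. Their mean ran from 0.36 to 0.57 on CS and -0.09 to 0.16 on RA arrays of batch 1. In batch 2 it ran from -0.17 to 0.63 on CS and -0.13 to 0.33 on RA arrays. Within groups the ciliated mean correlates at 0.60 with Gsta2 and at 0.32 and 0.41 with the Gsta3 probes. Of 5 alveolar macrophage markers 1 fell, as did 1 of 3 adipocyte markers. The parts of the ciliated, macrophage, adipocyte, lymphocyte and clock lists were not tested either. With the muscle mean as a covariate, added after seeing the data, Gsta3 probe 5550075 stood at -0.46 (limma adjusted p 0.0177) and Gsta2 passed at -0.48 (limma adjusted p 0.0216). With the club mean as a covariate, likewise added, they stood at -0.53 (limma adjusted p 0.0347) and -0.60 (limma adjusted p 0.0417). The brighter Gsta3 probe 3780193 passed with neither covariate. The club mean itself did not overlap between CS and RA in batch 1, so the fit with it cannot tell its part from that of smoke.

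The other glutathione transferase genes were read in the same fit. Of 25 listed, 20 had a probe and 18 were tested, each by its brightest kept probe: 5 rose, 1 fell and 12 did not pass, beside 5.23% of all probes higher and 5.85% lower. Their median difference was 0.18, against -0.005 over all genes. Gstm4, a mu class enzyme, read 6.62, 6.59 and 6.43 on CS and 5.84, 6.01 and 6.09 on RA arrays of batch 1, and 6.95, 6.68, 6.84 and 6.95 on CS and 6.63, 6.43, 6.41 and 6.36 on RA arrays of batch 2. Every CS array lay above every RA array of its batch for Gstm4, which rose by 0.47 ± 0.08 (SE; limma adjusted p 0.000921). Over all probes CS and RA do not overlap for 18.7% in batch 1 and 12.7% in batch 2. The theta enzyme gene Gstt2 rose by 0.47, Gsto1, an omega enzyme with dehydroascorbate reductase activity, by 0.46, and the microsomal Mgst2 and Mgst1, which act on lipid hydroperoxides, by 0.42 and 0.41 (limma adjusted p 0.0104, 0.0470, 0.0286 and 0.0117). Tested by batch, 0 of the 18 passed in batch 1, and 1 rose and 1 fell in batch 2. Over all probes 0.00588% passed in batch 1, and 2.29% passed higher and 2.84% lower in batch 2. Gstm4 was the one that rose (limma adjusted p 0.0407). Gstt2, Gsto1, Mgst2 and Mgst1 passed in neither batch (limma adjusted p 0.144, 0.280, 0.201 and 0.092 in batch 2). Gstt1 fell. It read 8.19, 8.68 and 8.53 on CS and 8.86, 8.73 and 8.61 on RA arrays of batch 1, which overlap. In batch 2 it read 9.16, 9.07, 9.15 and 9.29 on CS arrays, against 9.43, 9.57, 9.62 and 9.58 on RA arrays, which do not overlap. The fitted difference was -0.33 ± 0.08 (SE; limma adjusted p 0.0154), with -0.27 in batch 1 (limma adjusted p 0.786) and -0.39 in batch 2 (limma adjusted p 0.0309). Gstp2 differed by 0.31 and did not pass (limma adjusted p 0.158).

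**Figure D3:**
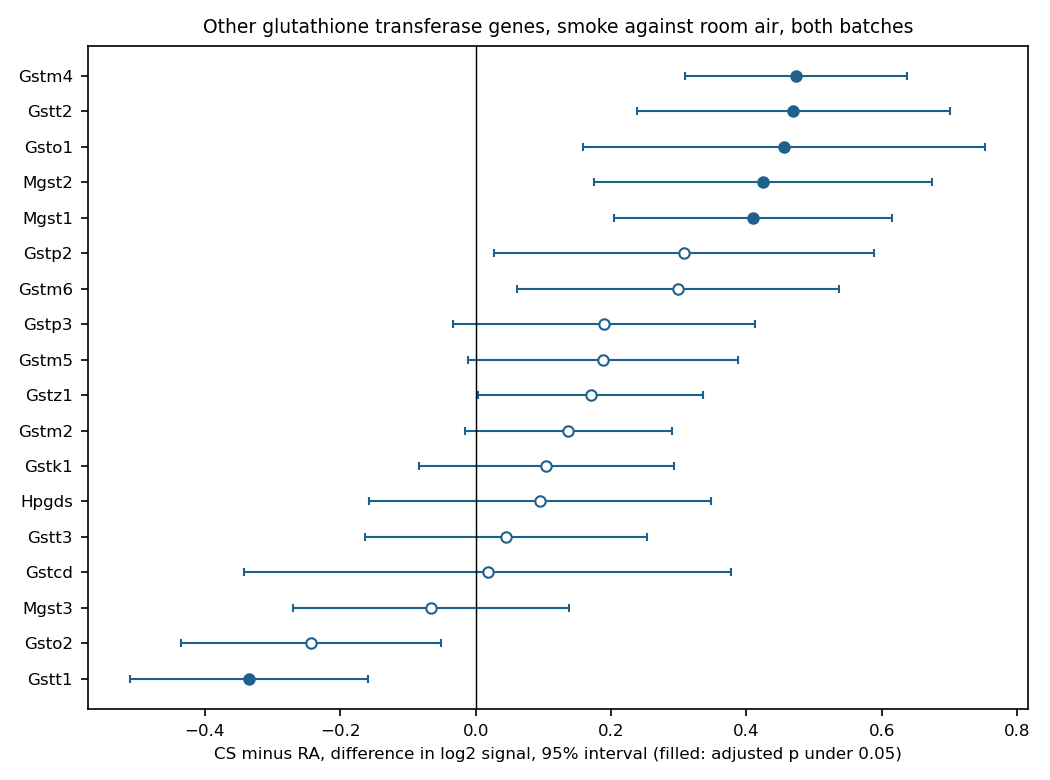
Difference in log2 signal, CS minus RA over both batches (horizontal axis, with 95% intervals), for the 18 other glutathione transferase genes tested; filled points pass at an adjusted p under 0.05. Gstm4, Gstt2, Gsto1, Mgst2 and Mgst1 are filled to the right of 0, and Gstt1 is filled to the left.

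Genes that make, recycle or export glutathione passed in 2 of 30 cases, a share near the 5.23% of all probes that rose: Slc7a11, the cystine importer, by 0.63 and Chac1, which degrades glutathione, by 0.44 (limma adjusted p 0.0003 and 0.0033). Slc7a11 was detected on no more than 8 of the 20 arrays, so most of its readings were near background. The median of that list was 0.04. Of 20 other NRF2 response genes tested, 2 rose, the transketolase gene Tkt by 0.37 and the carbonyl reductase gene Cbr1 by 0.33 (limma adjusted p 0.0367 and 0.0354), and the list's median was 0.12, with 5.23% of all probes higher. Tested by batch, 0 of these 20 passed in batch 1, beside 0.00588% of all probes. In batch 2, 0 rose and 1 fell, beside 2.29% of all probes higher and 2.84% lower. Of the 18 other glutathione transferases, 0 passed in limma's test in each of the 3 losartan comparisons, also at an unadjusted p under 0.05. Over all probes 0 passed in CS_Los against CS and in CS_Los against RA_Los, and 0.00588% in RA_Los against RA.

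Losartan was compared within batch 1, with 3 arrays per group and 1 estimate of the spread over the 4 groups. In CS_Los against CS, which asks whether smoke-exposed lungs differ with the drug, 0 of 10 probes passed in limma's test and 0 had an unadjusted p under 0.05, while over all probes 0 of 17012 passed and 998 had an unadjusted p under 0.05. The groups do not overlap for 2 of the 10 probes, and for 10.6% of all probes. Gsta3 probe 3780193 read 13.05, 13.14 and 13.13 on CS_Los arrays, against 12.96, 12.64 and 12.63 on CS arrays, a difference of 0.36 ± 0.20 (SE; limma adjusted p 0.883). All 3 CS_Los arrays lie above the CS arrays, and above the RA arrays at 12.82, 13.04 and 12.78. Gsta3 probe 5550075 read 6.62, 7.25 and 7.07 on CS_Los arrays, against 6.82, 6.27 and 6.05 on CS arrays, which overlap, with a difference of 0.60 ± 0.31 (SE; limma adjusted p 0.881). Gsta2 differed by 0.44 (limma adjusted p 0.902). Gstp1 probe 4290040 read 7.61, 7.48 and 7.72 on CS_Los arrays, against 7.45, 7.16 and 7.32 on CS arrays, a difference of 0.29. These comparisons share the CS arrays with the smoke comparison of batch 1, so an opposite sign in the 2 is not separate evidence.

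In CS_Los against RA_Los, 0 of 10 probes passed in limma's test, against 0 of 17012 over all probes (948 at an unadjusted p under 0.05). Gstp1 probe 1510035 had the 1 unadjusted p under 0.05 among the 10, at 0.023. It read 10.94, 10.57 and 11.22 on CS_Los arrays and 10.33, 10.29 and 10.52 on RA_Los arrays, which do not overlap, as is so for 8.35% of all probes. The difference was 0.53 ± 0.21 (SE; limma adjusted p 0.780). The other Gstp1 probes differed by 0.25 and 0.35, and the Gsta3 probes by 0.15 and 0.01.

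In RA_Los against RA, 0 of 10 probes passed in limma's test and 0 had an unadjusted p under 0.05, against 0.00588% of all probes called (844 at an unadjusted p under 0.05). The groups overlap for all 10, and do not for 11% of all probes. Gsta1 read 6.19, 5.91 and 4.47 on RA_Los arrays and 4.80, 4.91 and 4.96 on RA arrays, a difference of 0.63 ± 0.39 (SE; limma adjusted p 0.960). The alpha probes spread widely within RA_Los. Gsta3 probe 5550075 read 6.95, 7.68 and 6.26 there, against 6.57, 6.85 and 6.93 in RA, so 1 group held the highest reading of the batch and 1 near its lowest. The array RA_Los 2, highest for both Gsta3 probes, also had a hepatocyte marker mean 2.38 above the RA mean, from 3 of 8 markers tested (Serpina1a, Ahsg and Apoa2), as did CS_Los 3 at 2.31. The defining hepatocyte markers Alb, Fgb and Apoh were detected on 0 arrays, and the remaining Apoa1 and Ttr on 2 each. Other marker means, set to the RA mean, also spread over RA_Los 1, 2 and 3. They were 2.63, 1.48 and -2.28 for muscle and 0.97, 1.55 and -0.27 for club markers. For adipocyte markers they were 1.14, 1.33 and -0.63, and for alveolar type II markers -0.15, 0.02 and 0.14. The clock gene mean ran from 0.25 to 0.66 on RA_Los, -0.04 to 0.06 on RA and -0.55 to 0.54 on CS_Los arrays of batch 1. The part of these lists in the member values was not tested. The interaction of losartan with smoke called 0 of the 10 probes in limma's test (0 at an unadjusted p under 0.05), with estimates from -0.68 to 0.41, against 0 of all 17012 probes (1226 at an unadjusted p under 0.05).

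**Figure D4:**
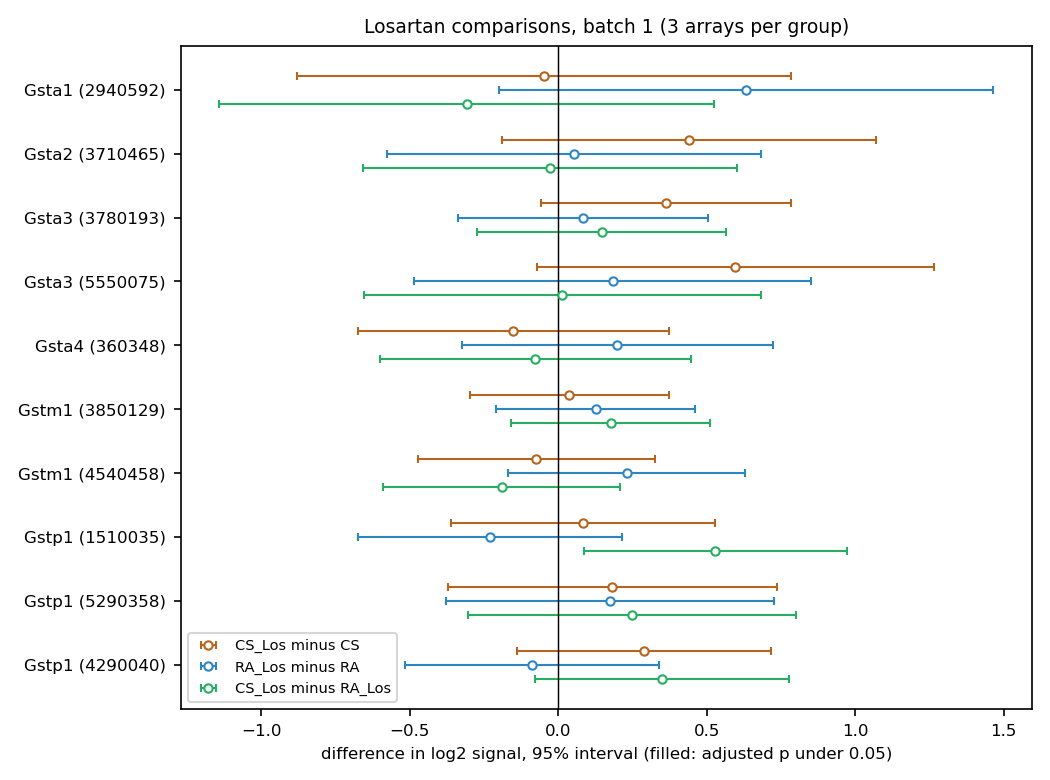
Difference in log2 signal (horizontal axis, with 95% intervals) for the 10 probes in CS_Los minus CS, RA_Los minus RA and CS_Los minus RA_Los, batch 1, 3 arrays per group; no point is filled, as none passes at an adjusted p under 0.05. Both Gsta3 probes lie to the right of 0 in CS_Los minus CS, at 0.36 and 0.60, with intervals that include 0.

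In batch 1 the order of the 4 group means differed between the genes. Gsta3 probe 3780193 ran CS_Los 13.11 ± 0.05, RA_Los 12.96 ± 0.41, RA 12.88 ± 0.14 and CS 12.74 ± 0.18 (SD, n = 3 each), where neighbours differ by less than the larger SD of the pair. Gstp1 probe 1510035 ran CS_Los 10.91 ± 0.33, CS 10.83 ± 0.26, RA 10.61 ± 0.28 and RA_Los 10.38 ± 0.12 (SD, n = 3 each), again with neighbours within 1 SD. Gstm1 probe 3850129 ran CS_Los 11.78 ± 0.14, CS 11.75 ± 0.16, RA_Los 11.61 ± 0.10 and RA 11.48 ± 0.17 (SD, n = 3 each), with each neighbour within 1 SD of the next. For Gstm1 and for Gstp1 probe 1510035 both smoke groups stand above both room air groups in mean.

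Within groups, Gsta1, Gsta2 and Gsta3 varied together, Gsta4 less so with Gsta1 and Gsta3, and the Gstp1 probes differed among themselves. These correlations describe deviations of the 20 arrays from the mean of their own group and batch, and the points share 2 batches and the same normalization. Gsta1 and Gsta2 correlate at 0.81, Gsta1 with the Gsta3 probes at 0.63 and 0.70, and Gsta2 with the Gsta3 probes at 0.50 and 0.57. Gsta1 was near background on most arrays, and its deviations stayed between -0.09 and 0.09 on RA arrays. They ran from -1.05 to 0.67 on RA_Los and from -0.57 to 0.55 on CS arrays of batch 1, so its correlations lean on few arrays. How far the Gsta1 probe also reads Gsta2 was not tested. Gsta4 correlates at 0.63 with Gsta2, at 0.27 with Gsta1 and at 0.11 and 0.29 with the Gsta3 probes. Gstp1 probe 1510035 correlates at -0.50 with Gsta3 probe 5550075 and at -0.15 with Gsta2. Gstp1 probe 4290040 correlates at 0.61 with Gsta1, 0.55 with Gsta2, 0.42 and 0.49 with the Gsta3 probes and 0.22 with Gsta4. The muscle marker mean correlates at 0.76 with Gsta1, 0.76 with Gsta2, 0.61 and 0.57 with Gsta3, 0.52 with Gsta4, 0.41 with Gstm1 probe 3850129 and, for Gstp1, -0.11 with probe 1510035 and 0.36 with probe 4290040. The club marker mean correlates at 0.56 with Gsta1, 0.65 with Gsta2, 0.67 and 0.62 with Gsta3, 0.58 with Gsta4, 0.57 with Gstm1 probe 3850129 and, for Gstp1, 0.05 with probe 1510035 and 0.38 with probe 4290040. Gsta2 also correlates at 0.80 with the adipocyte marker mean and at -0.64 with that of alveolar type II cells. There the Gstp1 probes differ: 0.07 and 0.61 for probe 1510035, 0.002 and 0.27 for 5290358, and 0.46 and -0.09 for 4290040. Gstp1 probe 1510035 correlates at 0.72 with the mean of the other glutathione transferases and at 0.71 with that of the glutathione synthesis and export genes. The values are 0.71 and 0.48 for Gstp1 probe 5290358, and 0.39 and 0.44 for Gstp1 probe 4290040. Gsta3 stands at -0.11 and -0.23 for probe 3780193, and at -0.17 and -0.22 for probe 5550075.

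**Figure D5:**
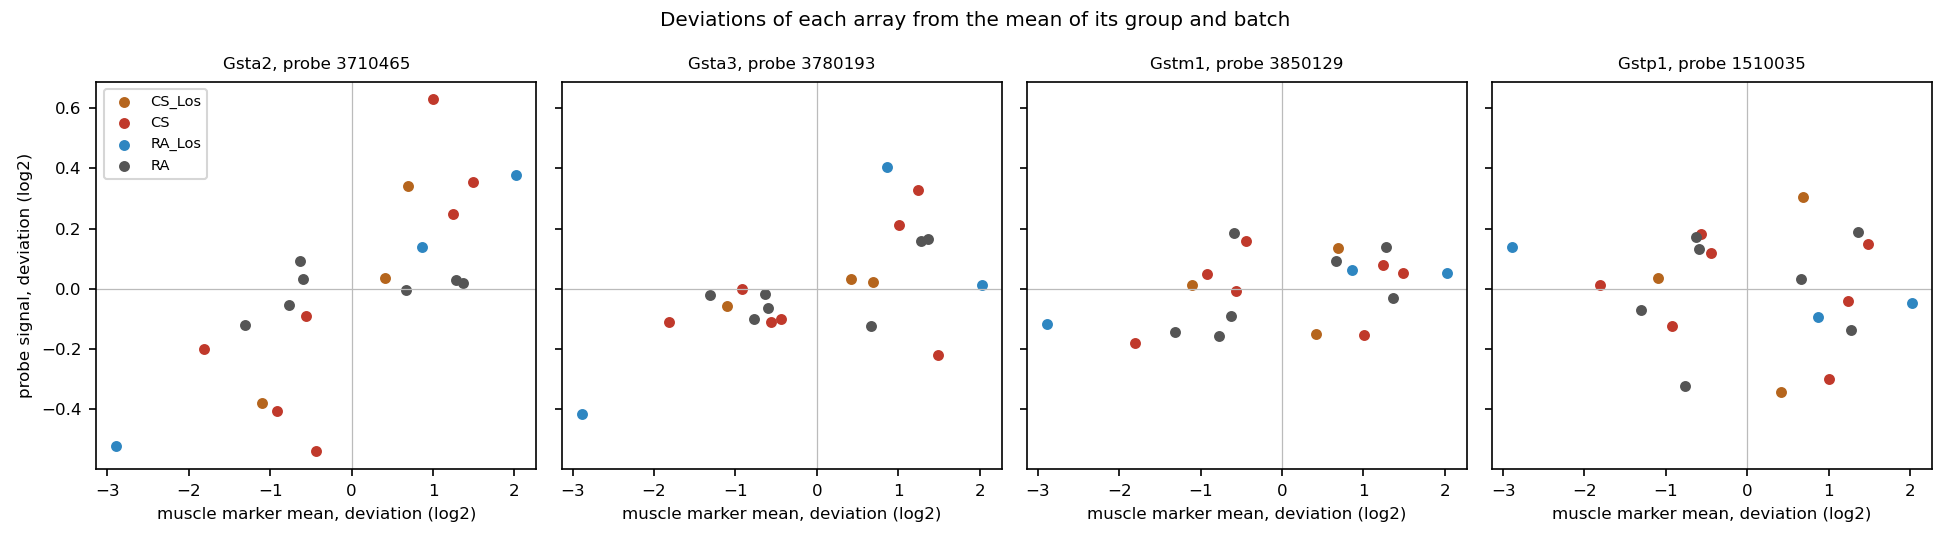
Deviation of each of the 20 arrays from the mean of its group and batch, in log2, for the muscle marker mean (horizontal axis) and for Gsta2, Gsta3, Gstm1 and Gstp1 probes (vertical axis). The Gsta2 points rise with the muscle marker mean (correlation 0.76) and those of Gstp1 probe 1510035 do not (-0.11), while Gstp1 probe 4290040, not drawn, correlates at 0.36.

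By the same measure, the named genes most like each member were taken over the 20 arrays, with 1 probe per gene. For Gsta2 they were Htra3 at 0.89 and the muscle genes Ttn, Cpt1b, Mybpc3 and Fhl2 at 0.84 to 0.86. For Gsta3 probe 3780193 they were Cycs, Rbmxl1, Pon1, Ndufaf4 and Gldc at 0.80 to 0.83. For Gsta4 they were Sod1 at 0.91, then Lad1, Selenbp1, Rsad1 and Adig. Gstm1 probe 3850129 was closest to Idh1 at 0.84, and Gstp1 probe 1510035 to Naxe and Rps13 at 0.93. Gsta1, near background on most arrays, was closest to Rhox5 at 0.93.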

How the data were processed

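Total RNA from 20 mouse lung samples was measured on Illumina bead arrays. The deposited signals are intensities on a linear scale before normalization, and each deposited detection p-value sets a probe against the negative controls of its array, per the file headers. BeadStudio made the signals, per the submitters' processing notes. Its version and any background subtraction are not given in the sources used here. The table held 0 signals below zero. A second table holds log2 values by the authors, which equal the log2 signal shifted to a median of 8 on each array (largest difference 0.0069), and served as an alternative.

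The signals went through nec in limma (offset 16, controls inferred from the detection p-values), quantile normalization over the 20 arrays and log2 (R 4.3.3, limma 3.58.1). A probe was kept if detected (p under 0.05) on 3 or more arrays. Comparisons used lmFit and eBayes on all kept probes with Benjamini-Hochberg adjustment, called under 0.05. CS against RA over both batches had a batch term. The losartan comparisons and CS against RA in batch 1 used the 12 arrays of batch 1, with 1 spread over its 4 groups. Gene names come from the platform annotation, which named 23141 probes with 1 symbol; the named genes are the 10 probes, up to 8 called members of each pathway list, and the 5 genes most correlated with each member's brightest probe, with marker lists given by counts and means and their genes named after their values were seen. The members and lists were chosen with earlier results of these data known. Script steps were tested on simulated data. Promoter motifs were searched in RefSeq sequences (GRCm38.p6). Samples with the same replicate number in the labels' description (the titles number CS_Los otherwise) were not treated as pairs in the main fits. Over 22 such pairs the deviations correlated at -0.32 to 0.31, over 0.1 in 3, which does not exclude pairing. No 2 arrays were identical (highest Spearman correlation 0.978). Alternatives covered background correction, normalization, probe filters, variance model, batch, replicate block and leaving out each array. The number of arrays limits the precision.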

Additional observations from a re-analysis of the deposited data

Results flagged for a closer look

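In the CS group of batch 2, the Gstm1 probe 3850129 read 11.81 on CS 6, against 12.04 to 12.07 on the other 3 CS arrays. The gap to the nearest array was 0.884 of the whole range, above Dixon's critical value for 4 arrays. Of 20 sets of 4 arrays tested in this way, 1 stood out, and chance gives about 1 in 20.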

How the results depend on the processing

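In CS against RA, 1885 probes passed. The count was 843 with all 20 arrays in 1 fit, 484 without the batch term and 824 with the club marker mean as a covariate, and ran from 1368 to 2241 when 1 array was left out. The members called numbered 2 with 75th percentile centring, the authors' log2 values, arrayWeights and the muscle or club covariate (both added after seeing the data), and 0 with 1 probe per gene, where Gsta3 is read by probe 3780193, with the replicate block, all 20 arrays or no batch term. Leaving out an array gave 0 to 2. Whether replicate numbers pair these samples was not settled. By correlation, 4 of 20 arrays matched best an array of their own number: RA 2 and RA_Los 2 (0.31) and RA 3 and RA_Los 3 (0.21). With few candidate arrays in each batch, such a count cannot exclude pairing. The replicate block gave 1513 probes over both batches and 440 in batch 2, against 872, and changed no other member's call.

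In batch 1 alone, where 1 probe passed, 0 passed without background correction, with an offset of 50, 75th percentile centring, the authors' log2 values, no detection filter or a stricter one, 158 with arrayWeights, 10 with all 20 arrays and 2 with each covariate, and 0 to 3 when an array was left out. In batch 2 the count was 378 to 848 when an array was left out. There 1 member passed with eBayes trend and robust and arrayWeights (Gsta3 probe 5550075), with each covariate (Gsta2), and 0 to 1 when an array was left out (1 without RA 6). With all 20 arrays, 3 probes passed in CS_Los against RA_Los and 3 in CS_Los against CS. In RA_Los against RA the count was 0 with all 20 arrays, the club covariate and the 6 settings that gave 0 in batch 1, 2 with the muscle covariate, and 0 to 1 when an array was left out. For the interaction of smoke with batch it was 0 without background correction, with 75th percentile centring, the authors' values or the stricter filter, 3 with no filter or arrayWeights, 2 with 1 probe per gene or eBayes trend and robust, and 1 to 4 when an array was left out. The cause of these shifts was not tested.

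Of 1444 member values, 1364 kept direction and call, 11 gained a call, 5 lost one and 64 changed sign, of which 0 were called. In CS against RA, Gstm1 probe 4540458 was 0.018 without background correction and -0.056 to 0.068 when an array was left out. Gsta1 was -0.033 with the authors' values, -0.00066 with arrayWeights, -0.044 with the club covariate and -0.054 to 0.16 when an array was left out. Gsta4 was -0.057 with arrayWeights, -0.11 with the club covariate and -0.020 to 0.10 when an array was left out, and Gstp1 probe 4290040 -0.0056 to 0.084. In batch 1 Gsta1 was -0.12 with the club covariate and Gstp1 probe 4290040 -0.097 to 0.046 when an array was left out; in batch 2 Gstm1 probe 4540458 was -0.18 to 0.030.

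In CS_Los against RA_Los, Gsta3 probe 5550075 was -0.0049 without background correction, -0.0046 with an offset of 50, -0.013 with 75th percentile centring, -0.050 with the muscle and -0.039 with the club covariate. With the authors' values Gsta2 was 0.027 and Gsta4 0.0033. When an array was left out, Gsta1 ran from -0.83 to 0.025, Gsta2 from -0.29 to 0.16, Gsta3 from -0.062 to 0.35 and from -0.34 to 0.37, and Gsta4 from -0.38 to 0.17. In CS_Los against CS, arrayWeights gave Gsta1 0.079, Gstm1 -0.015 and 0.0028 and Gstp1 probe 1510035 -0.054; Gsta4 was 0.027 with the authors' values and Gsta1 0.099 with all 20 arrays. When an array was left out, Gsta1 ran from -0.33 to 0.23, Gsta4 from -0.46 to 0.10, Gstm1 from -0.039 to 0.12 and from -0.16 to 0.038, and Gstp1 from -0.071 to 0.25 and from -0.015 to 0.52. In RA_Los against RA, Gsta3 probe 3780193 was -0.0029 with 75th percentile centring; Gsta2 was -0.075 with the muscle covariate. The club covariate gave -0.29 for Gsta2, -0.17 and -0.24 for Gsta3 and -0.032 for Gsta4. When an array was left out, Gsta2 ran from -0.14 to 0.31, Gsta3 from -0.12 to 0.29 and from -0.18 to 0.54, and Gstp1 probe 4290040 from -0.22 to 0.16. Gsta1 and Gstm1 probe 4540458, near background on most arrays, carry the least information.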
